A study of Rattus norvegicus with 24 samples.

Results

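Gal, Vip, Ucn, Cck, Nts, Crh, Vgf and Npy are peptide precursor genes that have been linked with the response of sensory neurons to nerve injury. They were chosen by name, as 8 of the 32881 genes shared by the count files of rat dorsal root ganglion (DRG) neurons, and were followed in the 1433 of 1464 cells that passed quality control. Neuropeptides are cut from larger precursors by proprotein convertases, stored in dense-core vesicles and released to act on receptors, most of them coupled to G proteins. Intact small sensory neurons are known for calcitonin gene-related peptide and substance P. Galanin, vasoactive intestinal peptide (VIP) and neuropeptide Y (NPY) are known as peptides that are scarce in intact ganglia and abundant after an axon is cut, and the precursor VGF is known to be induced by neurotrophins.

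The study combined nerve regeneration and neuropathic pain in 1 model, the spared nerve crush (SNC), in which the tibial and common peroneal branches of the left sciatic nerve are crushed and the sural branch is left whole. In male Sprague-Dawley rats, dyes were injected into the branches before surgery, and dye-labelled neurons of the L4 and L5 ganglia were picked one at a time under a microscope. The nerves of labelled sham animals had thus been exposed and injected as well. Labelled neurons came from 4 sham samples (215 cells), in which the nerve was exposed and not crushed, and from 4 samples at 1 day (238 cells), 3 samples at 3 days (237 cells) and 5 samples at 7 days (240 cells) after SNC. A further 7 libraries (503 cells), here called added sham, are labelled as sham at 0 days (S1, S2 and S7), 1 day (S3 and S6), 3 days (S4) or 7 days (S5), and were kept apart. Their labels do not mention dye, and the study counts such cells separately from its fluorescently labelled neurons. Each labelled sample mixes neurons of crushed and of spared branches, and the names of the cells do not carry the dye. The library labels put mostly directly injured neurons in sample 19-1 and mostly indirectly injured ones in 19-2. The study assigns the dye colours to crushed and spared branches one way in its results and the other way in its methods, so which of these samples is rich in crushed neurons is uncertain. At least 5 rats were used at each time, but which samples share a rat is not given, so p-values measure the spread between these samples, which may be partly technical.

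The promoters of the members are shown because several of them hold the cAMP response element (CRE), the site of the factors CREB and ATF, or the site of the AP-1 factors FOS and JUN. RefSeq promoters of the assembly GRCr8 matched 6 members (Gal, Vip, Ucn, Vgf, Nts and Npy), and the 250 bases before each start were searched on both strands for the CRE (TGACGTCA), its core (TGACG, which also lies inside the CRE) and the AP-1 site (TGANTCA). Capitals mark the match in each window of 30 bases.
Ucn, chr6:30957965-30957994, plus strand: cagttcttcgcTGACGTCAgtcggagctgt
Vgf, chr12:25277092-25277121, minus strand: tgaatgaacatTGACGTCAatggggcgggg
Vip, chr1:44470371-44470400, plus strand: ggatcaccactgTGACGtctttcgaggagc
Gal, chr1:210084618-210084647, minus strand: gcgctgagcgggTGACGcggcagctcccac
Nts, chr7:39461082-39461111, minus strand: aaccctttccgTGAGTCAgaaaccctgagc
The CRE was found in 2 of the 6 members, Ucn (110 to 103 bases before the start) and Vgf (90 to 83), against 1.59% of 33469 promoters. Its core was found in 5 of the 6, in Gal 63 to 59 and in Vip 97 to 93 bases before the start, against 18.2% of all promoters. The AP-1 site was found in Nts alone of the 6, against 6.34% of all. The promoter of Npy held none of these letters. A match of letters is a description of the window and not evidence that a factor binds there.

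A level is given here as UMIs (unique molecular identifiers, each standing for 1 captured molecule) of a gene per 1000000 UMIs (CPM), summed over the cells of a sample. CPM is a share of the captured RNA, so fewer cells of a type and less RNA per cell cannot be told apart, and a gene can gain a share because others lose it. A cell is said to hold a peptide at 100 CPM or more. The median depth was 239286 UMIs per labelled cell and 340145 per added sham cell. The neuronal genes Uchl1, Snap25 and Tubb3 were detected in 100% of the cells of both sets, while the endothelial gene Cldn5 was at 0 in all groups. All 6 glial genes examined were detected in every group, and their summed level was 181 to 1330 CPM in sham, 255 to 1063 at 1 day, 122 to 244 at 3 days, 145 to 253 at 7 days and 122 to 823 in added sham. The sham sample Xin had the highest glial sum (1330 CPM). The 4 macrophage genes summed to between 1.96 and 29.1 CPM. Labelled neurons formed 10 clusters and added sham neurons 7. They were named from marker genes fixed for peptidergic subtypes (PEP1, PEP2, PEP3), non-peptidergic (NP), neurofilament (NF), somatostatin (SST) and cold-sensing neurons and C low-threshold mechanoreceptors (c_pLTMR). Since 6 of the 8 members in labelled cells and 5 in added sham cells were among the genes used for clustering, levels by cluster are descriptions without a test.

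Galanin is an inhibitory peptide of injured sensory neurons, and UMIs of its gene were found in nearly every labelled neuron. A Gal UMI was found in 928 of 930 labelled cells, 876 (94.2%) held the gene, and the median cell had 1095 CPM and the highest 11701. Among added sham cells 11 of 503 (2.19%) held it. The study pooled amplified cDNA of single cells, and passage of molecules between cells of a pool was not tested. In the added sham library S4, 5 of 86 cells held Crh, while 80.2% had a Crh UMI and the median cell had 7.38 CPM. It is therefore not known whether low Gal counts come from the cell itself. Per sample, Gal in sham stood at 606 (sample 4), 718 (18), 1145 (10) and 2323 CPM (Xin). At 1 day Gal stood at 554 (17-2), 739 (13), 798 (17-1) and 1002 CPM (16), at 3 days at 863 (14), 940 (17-3) and 1332 CPM (15), and at 7 days at 749 (19-1), 863 (19-2), 936 (8), 1213 (S) and 1314 CPM (9). The added sham libraries had 1.71 to 22.2 CPM (median 5.81). All 4 labelled groups overlapped, Xin stood above every other labelled sample, and no added sham library came near the labelled ones.

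Every labelled cluster held Gal, at different levels. All 187 PEP1-like and all 187 PEP2-like cells were at 100 CPM or more. The 29 cold-like cells, marked by the cold channel gene Trpm8, stood at 1624 ± 433 CPM (SD, n = 5 samples with at least 3 such cells). The 2 SST-like clusters differed, with 1236 ± 319 CPM in cluster 5 (n = 12), in which Nppb, Il31ra and Osmr were the markers that stood high, and 221 ± 80.8 CPM in cluster 7 (n = 8), which is led by Sst. NP-like cells had 270 ± 133 CPM (n = 8), PEP3-like cells 679 ± 191 (n = 11) and the 2 NF-like clusters 521 ± 293 (n = 12) and 555 ± 323 (n = 15). The 3 genes whose levels across the 930 labelled cells were most like those of Gal, after each sample's mean was subtracted, were Cd63 (r = 0.71), the small heat-shock gene Hspb1 (r = 0.66) and the growth cone gene Gap43 (r = 0.61), of 14581 genes searched. These correlations share the depth of each cell and are given without a test.

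VIP, a peptide that relaxes smooth muscle and is known to rise in cut sensory neurons, was held by 498 of 930 labelled cells (53.5%) and by 18 of 503 added sham cells (3.58%). Sham samples had 269 (18), 341 (10), 482 (4) and 637 CPM (Xin). The SNC samples ranged from 200 to 557 at 1 day, from 229 to 429 at 3 days and from 221 to 471 at 7 days, all overlapping sham. Added sham libraries had 2.53 to 29.5 CPM (median 8.31), and none reached the labelled samples. Vip was more restricted than Gal. It was held by 92.5% of PEP2-like cells (997 ± 339 CPM, n = 16), 95.8% of the SST-like cells of cluster 5 (910 ± 195, n = 12) and 67.4% of PEP1-like cells (595 ± 188, n = 16), but by 14.7% of PEP3-like and 21.2% of NP-like cells. In added sham it was held by 7 of 28 SST-like cells, at 101 ± 39.5 CPM (n = 6). The most similar genes across labelled cells were Cnga4 (r = 0.55), Tgfbi (r = 0.53) and the injury gene Sprr1a (r = 0.51). Of the Vip holders 492 of 498 (98.8%) also held Gal, against 94.2% of all labelled cells.

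Urocortin and corticotropin-releasing hormone are ligands of the same receptor family. Ucn was held by 177 of 930 labelled cells (19.0%) and by 0 of 503 added sham cells, a count that allows a share of up to 0.596%. Sham samples had 49.7 (4), 50.1 (18), 65.9 (10) and 150 CPM (Xin). The samples at 1 day had 21.4 to 82.3 CPM, those at 3 days 33.7 to 76.9 and those at 7 days 17.9 to 75.8, so every group overlapped sham. Added sham libraries had 0 to 1.20 CPM, below all labelled samples. Ucn was held by 33.7% of the NF-like cells of cluster 4 (121 ± 100 CPM, n = 15), 33.3% of the SST-like cells of cluster 5, 31.0% of PEP1-like and 25.1% of PEP2-like cells. No PEP3-like cell held it, and its level there and in NP-like and Sst-rich cells was 3.87 to 6.70 CPM. Of the 177 Ucn holders, 175 also held Gal, which most labelled cells did, and 135 also held Vip. Across labelled cells Ucn was most like Csrp3 (r = 0.50), which encodes a muscle LIM protein, Cmtm3 (r = 0.50) and Tmem98 (r = 0.49).

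Crh was rare in labelled neurons, where 16 of 930 cells (1.72%) held it, and was held by 33 of 503 added sham cells (6.56%). Sham had 0.400 (18), 0.50 (Xin), 0.908 (4) and 11.5 CPM (10). The other labelled samples ranged from 0.439 to 17.6 CPM, with 1 or 2 high samples in each group. NP-like cells, which are unmyelinated neurons without the classical peptides, held 43.7% of its UMIs in labelled neurons and PEP2-like cells 43.9%. Of the 16 Crh holders 1 also held Ucn, and the correlation between these genes across labelled cells was -0.03. In added sham the libraries fell into 2 sets. S1, S2, S3 and S7 had 0.0745 to 0.479 CPM, while S4 had 30.5, S5 had 35.0 and S6 had 73.4 CPM. The NP-like cells showed the same split, since 0 of 24 (S1), 0 of 28 (S2), 0 of 23 (S3) and 0 of 8 (S7) held Crh, against 3 of 6 in S4, 11 of 21 in S5 and 15 of 24 in S6. Counts of 0 allow shares of up to 12.5%, 10.7%, 13.0% and 37.5%. Both sets include a library labelled 1 day, S3 in the low set and S6 in the high set, and all libraries labelled 0 days were low. In the high libraries the highest cells had 300.0, 730 and 758 CPM. Across labelled cells Crh was most like Alk (r = 0.37), Lrrc55 (r = 0.31) and Cd53 (r = 0.30).

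Cholecystokinin (CCK), a peptide known to oppose opioid analgesia, was held by 41 of 930 labelled cells (4.41%) and by 1 of 503 added sham cells. The holders numbered 2 of 215 in sham, 2 of 238 at 1 day, 17 of 237 at 3 days and 20 of 240 at 7 days. Per sample, sham had 0.618 (18), 0.908 (4), 23.8 (10) and 30.5 CPM (Xin). Cck stood at 0.110 (17-2), 4.79 (13), 5.55 (16) and 6.89 CPM (17-1) at 1 day, at 16.8 (14), 28.0 (15) and 35.7 CPM (17-3) at 3 days, and at 4.93 (19-2), 28.4 (19-1), 32.2 (8), 43.2 (S) and 78.3 CPM (9) at 7 days. Sham was split between 2 low and 2 high samples, and 3 days did not overlap 1 day. The 7-day sample 19-2 was the only 1 of its group inside the range of 1 day. PEP1-like cells held 49.8% of the Cck UMIs (52.7 ± 64.0 CPM, n = 16) and the NF-like cells of cluster 4 another 20.2% (38.8 ± 43.1, n = 15), whereas no NP-like, SST-like or cold-like cell held it. Cck was most like LOC299282 (r = 0.35), the peptide gene Cartpt (r = 0.31) and Htra1 (r = 0.31).

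Neurotensin, a peptide that modulates dopamine circuits and nociception, was held by 36 of 930 labelled cells (3.87%) and 5 of 503 added sham cells (0.994%). Its holders were concentrated at 3 days, with 0 of 215 cells in sham (a share of up to 1.395% is allowed), 1 of 238 at 1 day, 26 of 237 at 3 days and 9 of 240 at 7 days. Sham had 3.31 (18), 7.62 (4), 10.5 (10) and 16.7 CPM (Xin). Nts stood at 3.62 (17-2), 3.79 (17-1), 5.73 (16) and 7.19 CPM (13) at 1 day, at 14.5 (17-3), 23.0 (15) and 58.5 CPM (14) at 3 days, and at 8.39 (S), 8.63 (9), 18.4 (8), 23.6 (19-2) and 31.4 CPM (19-1) at 7 days. All samples at 3 and 7 days lay above all samples at 1 day, and both later times overlapped sham. Added sham libraries had 1.26 to 13.6 CPM. Only 1 cell held both Nts and Cck. PEP2-like cells carried 33.5% of the Nts UMIs, the NF-like cells of cluster 3 (marked by Pvalb) 32.2% and the few cold-like cells 17.6%, of which 9 of 29 held it. Within PEP2-like cells Nts ranged from 6.68 to 23.4 CPM in sham, 14.9 to 37.3 at 1 day, 77.7 to 145.5 at 3 days and 8.46 to 82.5 at 7 days. In PEP1-like cells it did not exceed 5.74 CPM in any sample. It was most like the potassium channel gene Kcnk1 (r = 0.35), Ano4 (r = 0.33) and Cd24 (r = 0.32).

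Vgf, which encodes a granin-like precursor cut into several active peptides, was present in most cells of both sets. It was held by 754 of 930 labelled cells (81.1%) and 322 of 503 added sham cells (64.0%). Sham samples had 131 (4), 148 (10), 184 (18) and 232 CPM (Xin). Vgf stood at 183 (16), 249 (13), 273 (17-1) and 274 CPM (17-2) at 1 day, at 240 (15), 267 (17-3) and 292 CPM (14) at 3 days, and at 206 (S), 212 (19-1), 228 (9), 233 (19-2) and 269 CPM (8) at 7 days. The 3 samples at 3 days lay above all 4 sham samples, and the other times overlapped sham. Every labelled cluster had Vgf, from 146 ± 29.3 CPM (SST-like cluster 7, n = 8) to 283 ± 88.3 CPM (PEP1-like, n = 16). In added sham the range was wider, from 62.7 ± 20.0 CPM in NF-like cells (n = 5) to 341 ± 149 CPM in the NP-like cells of cluster 4 (n = 7). Its most similar genes were Vat1 (r = 0.43), Stac2 (r = 0.42) and Capn5 (r = 0.41).

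NPY, which restrains nociceptive transmission through its Y1 receptor, was almost undetected at the level of its gene. A single Npy UMI, in 1 cell of the 3-day sample 17-3, was found among 259005280 UMIs of labelled neurons, and none was found among 202613681 UMIs of added sham neurons. For comparison, 3 UMIs would amount to 0.0116 CPM and 0.0148 CPM. The processing gene Pcsk1n was also at 0.00386 CPM in labelled cells, with a UMI in 0.108% of them. How well the assay and its gene models capture Npy was not tested, so these counts do not show that the gene is silent. No cell held Npy, which allows a share of up to 0.323% of labelled and 0.596% of added sham cells. The gene Npy1r, for the Y1 receptor, was detected in 89.9% of labelled cells.

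Labelled neurons usually held more than 1 of these peptides. Vgf apart, 44 of 930 labelled cells held none of them, 326 held 1, 375 held 2, 172 held 3 and 13 held 4. Of the 503 added sham cells 437 held none, 64 held 1 and 2 held 2. Among pairs of members the correlations across labelled cells ran from -0.05 (Cck with Nts) to 0.39 (Gal with Vip, and Vip with Ucn), which describes cells that share a library and a depth.

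**Figure D1:**
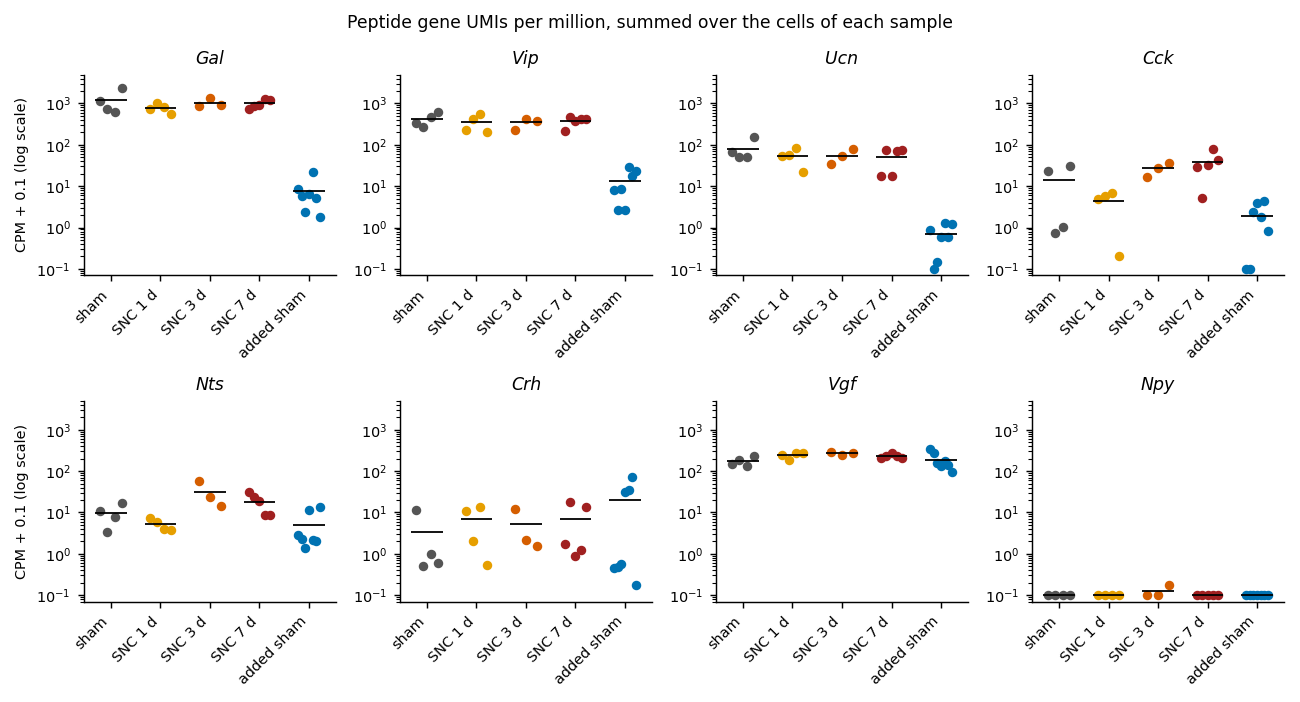
Level of each peptide gene in every sample, in CPM plus 0.1 on a log scale, for labelled sham, SNC at 1, 3 and 7 days and added sham. Each point is 1 sample and each line the group mean. The added sham points of Gal, Vip and Ucn lie below every labelled sample, those of Vgf (97.4 to 337 CPM) span the labelled ones, and Npy is at or near the bottom of the axis throughout.

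**Figure D2:**
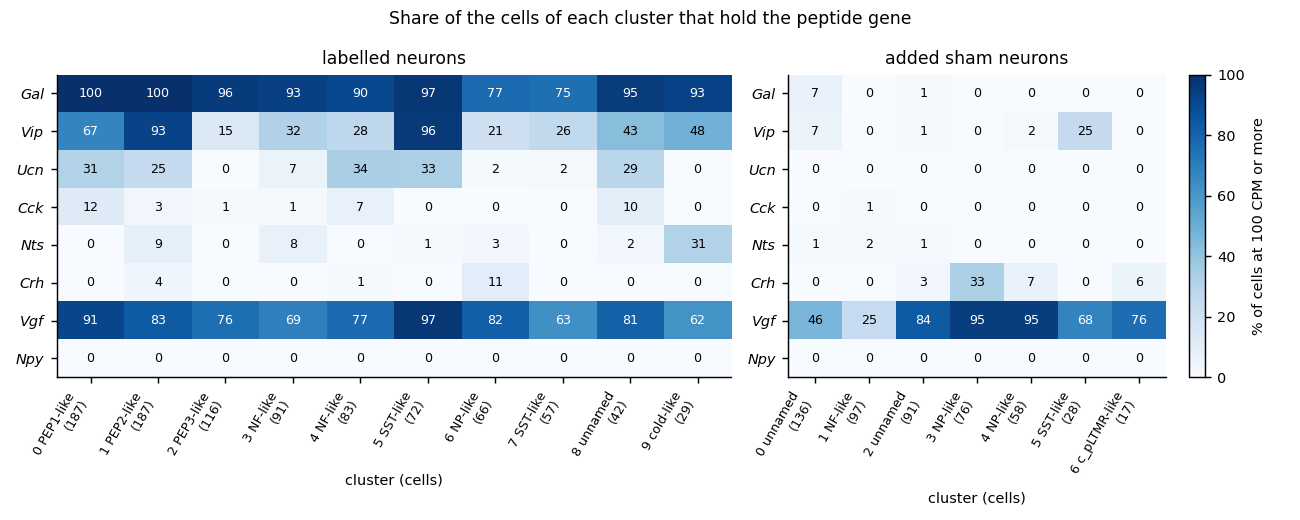
Share of the cells of each cluster (columns, with the number of cells) that hold each peptide gene (rows) at 100 CPM or more, in labelled neurons (left) and added sham neurons (right). Gal fills all labelled clusters, Vip is concentrated in the PEP2-like and an SST-like cluster, and Crh is highest in NP-like cells of added sham.

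Sums over all labelled neurons were compared between each time after SNC and sham with edgeR's quasi-likelihood test. No member was called at any of the 3 times. Of 14239 genes tested, 0 were called at each of the 3 times (0%), with 1243, 594 and 476 genes in their order at an unadjusted p under 0.05, while DESeq2 called 17, 1 and 0 genes and no member among them. The 7 members other than Npy had enough counts to be tested. Their median log2 difference from sham was -0.65 at 1 day, 0.57 at 3 days and 0.33 at 7 days, against -0.0059, -0.0049 and -0.0061 for all genes. Gal had a log2 difference of -0.73 ± 0.36 (SE) at 1 day (edgeR adjusted p = 0.579), -0.26 ± 0.39 at 3 days and -0.34 ± 0.34 at 7 days. Without the sham sample Xin the differences of Gal at 3 and 7 days turned to 0.36 and 0.29. Vip stood at -0.38 ± 0.35, -0.35 ± 0.38 and -0.26 ± 0.33, and Ucn at -0.65 ± 0.53, -0.58 ± 0.58 and -0.72 ± 0.50. Crh had the widest errors, with 0.92 ± 1.19, 0.60 ± 1.26 and 0.98 ± 1.15.

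Vgf and Nts came closest at 3 days. Vgf was 0.57 ± 0.18 higher on the log2 scale (unadjusted p = 0.00634, edgeR adjusted p = 0.966), with 0.41 ± 0.17 at 1 day and 0.33 ± 0.16 at 7 days. It was the 1 member whose samples at 3 days did not overlap sham, as were 5.7% of all genes tested, and no member was without overlap at 1 day (3.39% of all genes) or 7 days (1.06%). Nts was 1.72 ± 0.57 higher at 3 days (unadjusted p = 0.00755, edgeR adjusted p = 0.966), after -0.92 ± 0.54 at 1 day and before 0.88 ± 0.51 at 7 days. Cck had a log2 difference of -1.70 ± 1.03 at 1 day, 0.95 ± 1.05 at 3 days and 1.39 ± 0.96 at 7 days, and none passed the test. The glial sum was lower in all 3-day and 7-day samples than in all 1-day samples (ranges above), and its part in these differences was not tested. The samples at 1 and 3 days were reverse transcribed in the later of 2 years, which holds 1 of the 4 sham samples, so the year and the time are largely confounded in these comparisons. With the year as a term the difference of Cck at 1 day turned to 0.65 ± 1.26 and that at 3 days came to 3.29 ± 1.32 (adjusted p = 0.398). Within the earlier year, 7 days against sham (3 samples each) gave 0 of 13204 genes by edgeR (0%), with 396 at an unadjusted p under 0.05 and 11 called by DESeq2, none a member. There Cck stood at 1.41 ± 0.93, Gal at -0.36 ± 0.46 and Nts at -0.05 ± 0.46. Of the samples in this fit, sham Xin and S at 7 days were sequenced at an earlier date than the rest.

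The times after SNC were also compared with each other, a comparison added after the values had been seen. Nts was 2.64 ± 0.57 higher on the log2 scale at 3 days than at 1 day, which edgeR did not call (unadjusted p = 2.57e-04, adjusted p = 0.915) and DESeq2 did (2.64 ± 0.56, adjusted p = 0.00987). edgeR called 0 genes there (0%), with 439 at an unadjusted p under 0.05, and DESeq2 called 6 (0.0421%), Nts among them. Within the later year, which holds all samples of both times, the edgeR value was 2.62 ± 0.42 (adjusted p = 0.354). Without sample 14, in which 15 cells held Nts, it was 1.93. The Nts-rich cold-like cells made up 0 to 4.17% of the 1-day and 5.32 to 6.32% of the 3-day samples. Within PEP2-like cells Nts did not overlap between these times either (ranges above). How much of the difference goes with the share of each cluster was not tested. Cck was 2.64 ± 1.08 higher at 3 days than at 1 day (adjusted p = 0.984). Cck and Nts did not overlap between these times, as was true of 8.61% of all genes. At 7 days against 1 day, Nts was 1.80 ± 0.52 higher (adjusted p = 0.615) and Cck 3.09 ± 1.03 higher (adjusted p = 0.697). There edgeR called 0 genes (0%), with 944 at an unadjusted p under 0.05 and 22 called by DESeq2, and 2.37% of all genes were without overlap, Nts among them.

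Of the genes that make, store or receive these peptides, edgeR called none after SNC at any of the 3 times, among 10 tested receptor genes, 9 for processing and storage, 11 other sensory peptides and 7 injury regulators. How often changes of known size were found was examined by simulation. In simulated counts with the depth and spread of the 1-day comparison, 142 genes were called, 4 of them falsely. The share of changed genes found was 41.8% at a log2 change of 1, 74.6% at 2 and 90.9% at 4. These shares describe simulated data in which many genes changed at once, whereas edgeR called 0 genes in the real comparison. There Cck and Crh had errors (SE) of 1.03 and 1.19 on the log2 scale. How often a change in a given member would be called was not tested, and the shares do not give it.

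The 2 kinds of sham neurons were compared next, 4 labelled sham samples against 7 added sham libraries. Gal, Vip, Ucn and Cck were higher in labelled sham, and no member was lower. Of 15791 genes tested edgeR called 6415 (40.6%), of which 2599 (16.5% of those tested) were higher in labelled sham, so a call by itself was common in this comparison. Gal was higher by 7.49 ± 0.68 on the log2 scale (edgeR adjusted p = 4.56e-05), Ucn by 7.20 ± 0.70 (adjusted p = 4.90e-05) and Vip by 5.19 ± 0.60 (adjusted p = 8.03e-05). The samples of these 3 genes did not overlap, as held for 27.6% of all genes. Cck was higher by 3.04 ± 1.13 (adjusted p = 0.0470), a call that DESeq2 did not make (adjusted p = 0.0526). The call for Cck was also lost without sham 10, sham Xin, S2, S3, S5 or S7, with adjusted p between 0.0286 and 0.154 over all samples left out in turn. Nts differed by 1.06 ± 0.67 (adjusted p = 0.225), Crh by -2.43 ± 1.66 (adjusted p = 0.258) and Vgf by 0.00 ± 0.33 (adjusted p = 0.994). The dye, the set of libraries and the days of the labels differ together between the 2 kinds of sham and cannot be told apart.

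The separation of Gal was seen in each neuron type named in both sets. For these types, exact two-sided permutation tests over samples with at least 3 such cells were made after the values had been seen. Their 21 p-values have a smallest adjusted value of 0.075, so no difference passed. In each type the p of Gal is the lowest that the numbers of samples allow, so these tests had little room to pass. In NP-like cells (labelled cluster 6, added clusters 3 and 4) Gal had 99.7, 159 and 208 CPM in the 3 labelled sham samples and 0.814 to 15.2 CPM in the 7 added libraries (exact p = 0.0167). In SST-like cells (labelled clusters 5 and 7, added cluster 5) it had 354, 853 and 1193 CPM against 0 to 2.63 CPM in 6 libraries (exact p = 0.0238). In NF-like cells (labelled clusters 3 and 4, added cluster 1) it had 73.6, 530 and 988 CPM against 0.897 to 4.35 CPM in 5 libraries (exact p = 0.0357). Gal did not overlap in any of these types, but the share of all genes without overlap was not taken by type. Over whole samples that share was 27.6%. Ucn had 20.8 to 147 CPM against 0 to 10.3 CPM in SST-like cells and 18.7 to 82.1 CPM against 0 to 0.460 CPM in NF-like cells. Vip had 285 to 1088 CPM in labelled SST-like cells against 49.0 to 139 CPM in the added ones. Vgf in NP-like cells had 122 to 239.6 CPM against 202 to 386 CPM (exact p = 0.0333).

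Of the genes that work with these peptides, receptor genes were called about as often as other genes between the 2 kinds of sham. Of 15 receptor genes listed 10 were tested, 2 were higher in labelled sham and 2 lower, where 40.6% of all genes were called and 24.2% were called lower. Cckbr, for the receptor that binds CCK and gastrin, had 27.1 to 52.7 CPM in labelled sham against 0 to 1.23 CPM, a log2 difference of 6.56 ± 0.76 (edgeR adjusted p = 8.36e-05). Npy1r was higher by 2.08 ± 0.41. Ntsr1, for a neurotensin receptor, was lower by 2.98 ± 0.60 and Sort1, for the neurotensin-binding sorting receptor sortilin, by 1.87 ± 0.41. Galr1, for an inhibitory galanin receptor, differed by -0.16 ± 0.51 and was not called. None of the 9 tested genes for peptide processing and storage was called, and the granin gene Scg3 stood at -0.04 ± 0.20 and Cpe, for carboxypeptidase E, at 0.10 ± 0.13. Among 11 other sensory peptides tested, Nppb and Pdyn were higher and Nmu lower, while Calca, for calcitonin gene-related peptide, differed by 0.24 ± 0.34. Of 7 injury regulators 6 (Atf3, Jun, Sox11, Ecel1, Gap43 and Sprr1a) were higher in labelled sham, all but Stat3. The median of that list was 1.84, against -0.15 for all genes and 3.04 for the 7 members tested. None of the 6 glial genes was called.

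Since the dye of a cell is not in the files, Sprr1a, a gene known to be made by neurons with cut axons, was used to split the labelled cells of each sample. At 100 CPM or more, 413 of 930 labelled cells (44.4%) were Sprr1a-high, namely 36.3% of sham cells, then 43.3% after 1 day, 43.0% after 3 and 54.2% after 7, and 0 of 503 added sham cells. In the sham sample Xin 19 of 24 cells were Sprr1a-high. The high and low cells of the same sample were compared with the sample as a block (16 samples). Gal, Vip, Ucn, Cck and Vgf were higher in Sprr1a-high cells, and no member was lower, where 28.2% of 14422 genes were called and 14.4% were called higher.

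Gal had 657 to 2432 CPM in high cells and 327 to 1916 CPM in low cells (means 1501 ± 428 and 651 ± 372, SD, n = 16), and was higher in the high cells of 16 of 16 samples. Its log2 difference was 1.34 ± 0.14 (edgeR adjusted p = 3.09e-07). Vip was higher by 1.70 ± 0.18 in 16 of 16 samples (adjusted p = 4.08e-07), with means of 624 ± 291 against 201 ± 87.7 CPM. Ucn was higher by 2.09 ± 0.36 in 14 of 16 samples (adjusted p = 1.34e-04). The exceptions were sham Xin, whose 5 low cells had the highest Ucn value of their class (314 CPM against 106.3 in the 19 high cells), and sample 8 at 7 days (18.4 against 17.6 CPM). Cck was higher by 1.90 ± 0.47 in 14 of 16 samples (adjusted p = 0.00410), a call lost at a split of 200 CPM (adjusted p = 0.0834) and in cells thinned to 20000 UMIs (adjusted p = 0.0821). Vgf was higher by 0.29 ± 0.086 in 10 of 16 samples (adjusted p = 0.0132). Nts (-0.04 ± 0.25) and Crh (-0.12 ± 0.81) were not called.

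**Figure D3:**
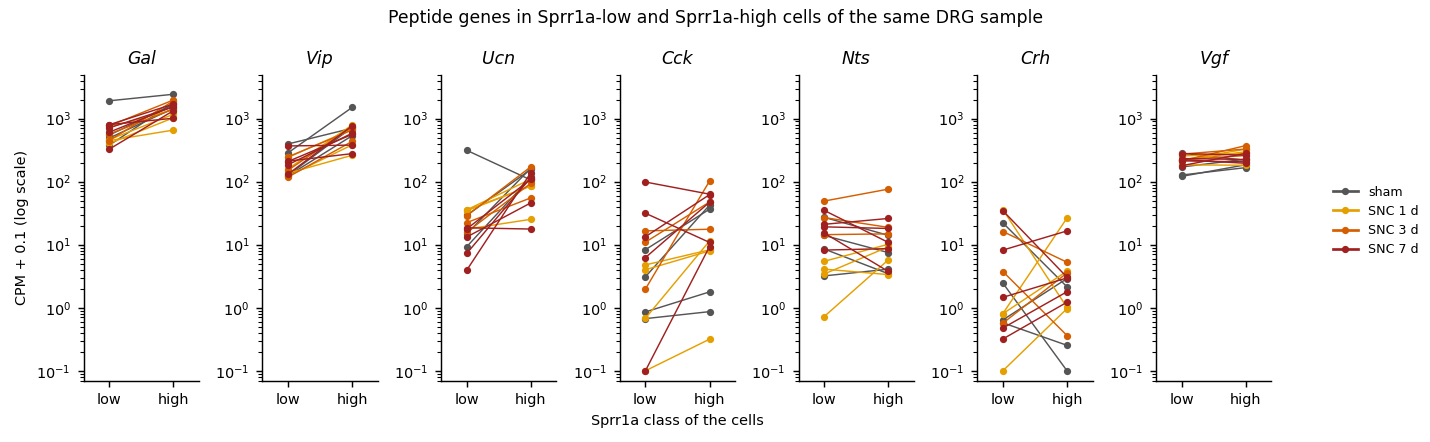
Level of 7 peptide genes in the Sprr1a-low and Sprr1a-high labelled cells of each sample, in CPM plus 0.1 on a log scale, with a line joining the classes of 1 sample. Lines of Gal and Vip rise in 16 of 16 samples, while those of Nts and Crh cross.

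The classes also differed in cluster, so fits were made within single clusters too. Whether a cluster marks a neuron type or a state after injury was not tested. These fits therefore need not hold the type fixed, and a call lost in them has no single reading. Among PEP1-like cells 72.7% were Sprr1a-high and among PEP2-like cells 70.1%, against 4.31% of PEP3-like and 4.55% of NP-like cells. Within PEP1-like cells 37 of all genes tested were called, among them Sprr1a, which set the classes and is no result. Of the 5 members tested 1 was called, Ucn, at 1.39 ± 0.24 (edgeR adjusted p = 0.00993). There Gal differed by 0.20 ± 0.12 (adjusted p = 0.880) and Vip by 0.49 ± 0.22 (adjusted p = 0.669). Within PEP2-like cells 77 of all genes tested were called, Sprr1a again among them. None of the 7 members tested was called there, with Gal at 0.52 ± 0.16 (adjusted p = 0.167), Vip at 0.56 ± 0.25 and Ucn at 0.97 ± 0.43. Vgf turned direction in both clusters, to -0.051 ± 0.12 in PEP1-like and -0.17 ± 0.12 in PEP2-like cells, and was not called in either. In sham samples alone Gal (1.53 ± 0.29, adjusted p = 0.0389) and Vip (2.08 ± 0.27, adjusted p = 0.0126) were higher in Sprr1a-high cells. A test of whether the class difference depended on SNC called 0 of 14422 genes by edgeR (0%), with 667 at an unadjusted p under 0.05 and 2 by DESeq2. Its log2 values were -0.25 ± 0.32 for Gal, -0.52 ± 0.40 for Vip and -0.26 ± 0.86 for Ucn.

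Of the 11 other sensory peptides tested between the classes, 7 were lower in Sprr1a-high cells (Bdnf, Calca, Calcb, Nmb, Nppb, Sst and Tac1) and 2 higher (Cartpt and Pdyn), where 13.9% of all genes were called lower. Calca was lower by 0.82 ± 0.17 on the log2 scale and Sst by 2.54 ± 0.31. The Sst-led cluster 7 (1.75% Sprr1a-high) and the PEP3-like cluster, with Calca and Calcb among its leading genes, lay almost wholly in the low class. Within PEP1-like cells 1 of 9 such peptides was called, Calcb at -0.94 ± 0.19 (edgeR adjusted p = 0.0268), and within PEP2-like cells none of 9 was called by edgeR. Receptor genes had 1 call higher, Cckbr (1.38 ± 0.15), and 3 lower, Npy1r (-0.80 ± 0.16), Npy5r (-1.25 ± 0.22) and Vipr2 (-1.31 ± 0.20), the last for a receptor of VIP. Processing genes were split, with Cpe and Pam higher and Chga, Pcsk1 and Scg2 lower. The glial gene Mbp was higher by 0.41 ± 0.11 and the other 5 glial genes were not called.

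PEP1-like cells, the labelled cluster with the highest Cck level over all groups, were examined alone. Because that level was set mostly by the later times (in sham the NF-like cells of cluster 4 had 41.3 CPM and PEP1-like cells 13.1 CPM on average), the values of Cck in this cluster are a description without a test. The cluster itself made up 10.4 to 16.7% of the cells of sham samples and 18.9 to 29.2% of those of all SNC samples, without overlap, so its make-up may differ between the groups, which was not tested. All 16 samples had at least 3 of the 187 cells, and 10622 genes were tested. Cck had 0 (4), 3.89 (18), 15.6 (10) and 32.7 CPM (Xin) in sham and 0 to 14.7 CPM at 1 day. It had 14.4 (14), 96.6 (15) and 107 CPM (17-3) at 3 days and 13.0 (19-2), 38.5 (19-1), 133 (8), 166 (9) and 190 CPM (S) at 7 days. At both later times the lowest sample was within the sham range and all others lay above it. The fitted log2 difference of Cck from sham was -0.16 ± 1.02 at 1 day, 2.92 ± 0.96 at 3 days and 3.51 ± 0.91 at 7 days. No member passed edgeR's test here, where it called 1 of 10622 genes after 1 day (0.00941%), 1 after 3 days (0.00941%) and 0 after 7 days (0%), with 1122, 662 and 500 genes at an unadjusted p under 0.05 and 17, 2 and 2 called by DESeq2.

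In these cells Ucn was highest in the sham samples Xin, 4 and 18, while sham 10 lay below sample 16 at 1 day and S at 7 days. The sham samples had only 4 to 10 such cells each. Ucn did not pass edgeR's test at any time. It had 101.7 (10), 134 (18), 168 (4) and 193 CPM (Xin) in sham, 46.8 to 106.6 CPM at 1 day and 77.8 to 96.3 CPM at 3 days. At 7 days it had 30.1 (8), 33.0 (9), 42.2 (19-2), 48.4 (19-1) and 105 CPM (S), of which only S reached the sham range. The log2 difference at 7 days was -1.55 ± 0.32 (unadjusted p = 6.97e-05, edgeR adjusted p = 0.370), and DESeq2 called Ucn there as 1 of 2 genes (adjusted p = 0.00480, 0.0188% of genes). Without sample S edgeR called it too (-2.0001, adjusted p = 0.00493), and over all samples left out in turn the adjusted p ran from 0.00493 to 0.990. Vgf had 107 to 261 CPM in sham and 290 to 465.8 CPM at 3 days, a log2 difference of 0.83 ± 0.23 (edgeR adjusted p = 0.786). Gal stood at -0.78 ± 0.29, -0.17 ± 0.31 and -0.40 ± 0.27 over the 3 times, and Crh, Nts and Npy had too few counts there to be tested. When the cells were clustered without the 8 members, 186 of the 187 cells stayed together in a cluster of 189, and the 7-day values were 3.59 for Cck and -1.48 for Ucn. In the simulation of this fit 142 calls were made, 6 of them false.

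**Figure D4:**
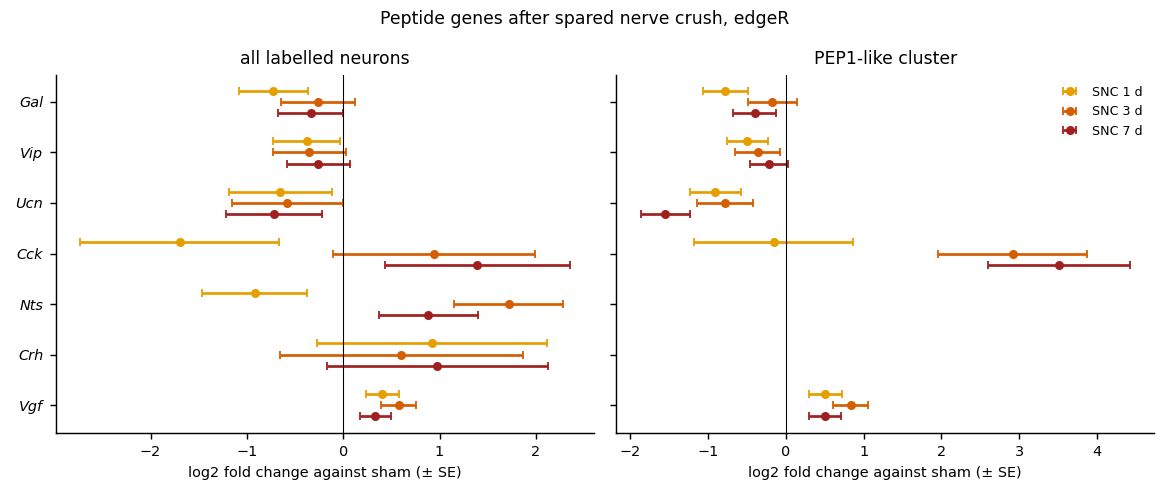
Log2 difference from sham (edgeR, bars ± SE) of the peptide genes at 1, 3 and 7 days after SNC, over all labelled neurons (left) and in the PEP1-like cluster (right). No value passed the test. Cck at 3 and 7 days and Ucn at 7 days lie farthest from 0 in PEP1-like neurons, a cluster chosen for its Cck level.

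**Figure D5:**
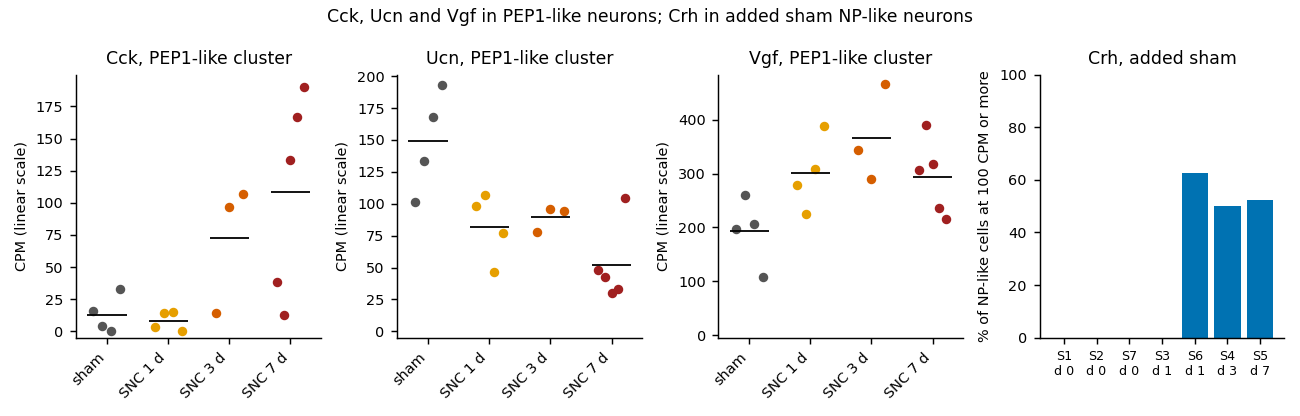
Cck, Ucn and Vgf in the PEP1-like cells of each labelled sample (CPM, linear scale, line at the group mean), and the share of NP-like cells of each added sham library that hold Crh. Cck exceeds the sham range in 2 of 3 samples at 3 days and 4 of 5 at 7 days, and Crh is held by NP-like cells of S4, S5 and S6 and by none of S1, S2, S3 and S7.

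Samples 19-1 and 19-2, both at 7 days, differ in which neurons were picked, and each is 1 sample, so their values have no replicate. Sprr1a-high cells, which the label of direct injury would place in 19-1, made up 5 of 24 cells in 19-1 and 14 of 24 in 19-2, against the labels. No direction with injury is therefore drawn from the pair. In the library labelled 19-1 Cck had 28.4 CPM against 4.93 in 19-2 and Nts 31.4 against 23.6. Vip had 221 CPM in 19-1 against 471, Ucn 18.0 against 75.8, Crh 1.58 against 17.6 and Gal 749 against 863, while Vgf had 212 and 233 CPM.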

How the data were processed

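Single L4 and L5 DRG neurons of rats were sequenced from their 3′ ends with a modified Smart-seq2 protocol, in which the oligo-dT primer carries a cell barcode and a UMI. The authors aligned the reads to Rnor_6.0 with STAR and deposited UMI counts per gene and cell, made with featureCounts, SAMtools and UMI-tools, versions not given in the sources used here, without normalization. The strand setting is not given, so reads of overlapping genes cannot be told apart. A deposited table of 1 gene annotation was not used.

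A cell was kept if it had 500 or more genes, 1000 or more UMIs and less than 5% of them in the 13 genes named Mt-. Libraries S-2 and S-3 were summed as DRG sample S. Sample totals were 4002503 to 28975829 UMIs in labelled and 14004136 to 40732975 in added sham samples, and precision is limited by the 3 to 7 samples a group. Intervals and limits for counts of 0 (3 counts) cover counting error only. UMI sums per sample were tested with edgeR 4.0.16 (filterByExpr, TMM, quasi-likelihood, Benjamini-Hochberg adjusted p under 0.05). All labelled groups shared 1 fit and the Sprr1a comparison had the sample as a block. DESeq2 1.42.0 and other settings served as alternatives. Exact permutation tests compared single genes by type. Clusters came from Seurat 5.3.0 (2000 variable genes, 40 principal components, resolution 0.5), made separately for labelled and added sham cells. No doublet caller was run on these hand-picked cells. No cell name was shared by libraries. On simulated counts with 200 changed genes the fits made 128 to 171 calls, 3 to 8 of them false. Python 3.11.15 and R 4.3.3 were used.

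The members, gene lists and tests were chosen with earlier results of these data known. Named genes are the 8 members, the called genes of the fixed lists with at most 4 more of the highest mean CPM in a list, and the 3 genes most correlated with each member among genes detected in at least 5% of labelled cells. Comparisons between times after SNC, within the earlier year and by type were added after values were seen.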

Additional observations from a re-analysis of the deposited data

Results flagged for a closer look

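Of 28 groups of samples tested for a sample far from the rest, 3 had one, and chance gives about 1 in 20. Gal in the added sham library S5 stood at 22.2 CPM, against 8.21 in the nearest and 1.71 in the lowest of the 7 libraries, a gap of 0.683 of the range. S5 held 9 of the 11 added sham cells with Gal at 100 CPM or more, none of them NP-like. Crh in the sham sample 10 stood at 11.5 CPM, against 0.908 in the nearest of the 4 samples, a gap of 0.954 of the range. Ucn in the sham sample Xin stood at 150 CPM, against 65.9 in the nearest sample, a gap of 0.839 of the range. Xin was the shallowest sample, had the highest glial sum of the sham samples and the largest share of Sprr1a-high cells (79.2%). The study lists Xin and S with an earlier sequencing date than all other labelled samples.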

How the results depend on the processing

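Counts of called genes under other settings were as follows. DESeq2 called 17 genes at 1 day, 1 at 3 days and 11 in the earlier year at 7 days where edgeR called 0, and 17, 2 and 2 genes in the PEP1-like cluster, where edgeR called 1, 1 and 0. Once the reverse transcription year entered the model, edgeR called 1 gene in each of the 1-day and 3-day comparisons, without a filter on low counts 1 at 3 days, and in cells thinned to 20000 UMIs 2 at 3 days. Between Sprr1a classes 4072 genes were called, 1995 in thinned cells, 37 in PEP1-like cells, 77 in PEP2-like cells and 257 in sham alone, where fewer samples or cells were tested. Leaving out each sample once, 0 to 1 genes were called at 1 and at 3 days, and 0 to 1, 1 to 3 and 0 to 1 in the PEP1-like cluster at 1, 3 and 7 days. The later-year samples alone gave 6 genes at 7 days against 1 day.

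Directions turned for values that had not passed a test, and for Vgf between Sprr1a classes, and the cause was not tested. With the year in the model the log2 values were 0.65 for Cck and 0.017 for Vip at 1 day, and 0.32 for Gal and 0.046 for Vip at 3 days. Between the shams Vgf gave -0.0061 without a filter and -0.20 in thinned cells. Between Sprr1a classes Crh gave 0.40 at 200 CPM, 0.16 by DESeq2, 0.23 in thinned cells, 0.71 in PEP2-like cells and 0.23 in SNC samples. Nts gave 0.10 at 50 CPM, 0.015 at 200 CPM, 0.37 in thinned cells and 0.11 in SNC samples. Vgf, called over all labelled cells, gave -0.051 in PEP1-like and -0.17 in PEP2-like cells. With at least 5 PEP1-like cells a sample, Cck at 1 day gave 0.42 and Gal 0.35 at 3 and 0.12 at 7 days.

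When each sample was left out once, the log2 difference at 3 days ran from -0.90 to 3.09 for Crh, -0.49 to 0.36 for Gal and -0.95 to 0.0018 for Ucn, and at 7 days from -0.57 to 0.29 for Gal and -0.44 to 0.053 for Vip. These turns of Gal, Vip and Ucn came without sham Xin. In the earlier year it ran from -2.20 to 2.66 for Crh, -0.72 to 0.38 for Gal and -0.54 to 0.37 for Nts. Vgf ran from -0.14 to 0.28 between the shams. Between Sprr1a classes Crh ran from -0.53 to 0.29 and Nts from -0.17 to 0.068. In the PEP1-like cluster Cck at 1 day ran from -0.67 to 0.42, Gal from -0.35 to 0.35 at 3 and -0.58 to 0.12 at 7 days, and Vip from -0.40 to 0.024 at 7 days.

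Of the other settings for the members' values, 246 kept direction and call, 13 lost a call and 2 gained one. Averaged over the 16 samples, the share of labelled cells that hold Gal was 93.7% at 100 CPM and 84.2% at 200 CPM, and the share of labelled cells that hold Ucn was 31.8% at 50 and 9.29% at 200 CPM.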

Other observations

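Of the 11 added sham cells with Gal at 100 CPM or more, 10 were in the unnamed cluster 0, and of the 18 with Vip 9 were in that cluster and 7 in the SST-like one. A single cell held both. In cluster 0 all 6 glial markers and 3 peptidergic ones stood high, and its leading genes were Kcng1, Cd9, Chp2, Aqp1, Insrr, Kit and Adcyap1. Cck in added sham was carried mainly by NF-like cells, with 67.5% of its UMIs and 6.58 ± 5.49 CPM (n = 5).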
